A study of Homo sapiens with 8 samples.

Results

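Mitosis genes were examined in MDA-MB-231, an established human breast cancer cell line, and in its ρ0 derivative. The 55 members were listed by name from the regulators of entry into mitosis, the chromosomal passenger complex, the spindle checkpoint, the kinetochore, the mitotic kinesins, the spindle proteins and the condensation factors. All 55 were found among the 23393 gene symbols of the read-count table, and all 55 were among the 15262 genes that passed the expression filter and were tested. The lowest count of any member in any library was 93.

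RNA-seq covered 8 libraries in 4 groups of 2, namely parental control, parental arginine-starved, ρ0 control and ρ0 arginine-starved. The labels describe the starved cells as treated with 0.3 µg/mL arginine deiminase, an enzyme that degrades arginine, for 48 h, whereas the study's text describes medium without arginine. The ρ0 cells are a single clone, number 27, depleted of mitochondrial DNA with ethidium bromide and kept in medium with pyruvate, uridine and ethidium bromide. Differences between the lines can therefore not be told apart from differences between clones or between culture media. No label states that the 2 libraries of a group came from separate cultures, so p-values measure the spread between libraries, which may be technical. That spread was estimated for each gene over all 4 groups, so a parental p-value also carries the spread between the ρ0 control libraries.

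Cells enter mitosis when cyclin B bound to CDK1 is switched on. Many genes of mitosis are silent early in the cell cycle and are transcribed together in G2 and M, through the MYB-MuvB complex and FOXM1. Their mRNA levels in a culture are for this reason widely used as a measure of how many of its cells are cycling. RNA from a whole culture was sequenced here, so a smaller share of cells in G2 and M cannot be told apart from less mRNA in each such cell.

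The libraries held between 25259503 and 31022155 counts. The biological coefficient of variation between the 2 libraries of a group was 5.18% in parental control cells, 2.25% in starved parental cells, 25.1% in ρ0 control cells and 1.84% in starved ρ0 cells. The ρ0 control libraries thus stood apart from each other, and the levels in ρ0 control cells are given for both libraries. Where a named response rests on which of them is used, its value is also given without each. Of the markers of the line, VIM, the mesenchymal filament protein, was at 522 CPM (counts scaled to a common library total) or more in every library. SPARC of the same list was at 2.54 CPM or less. Transcripts of ESR1 and PGR, the oestrogen and progesterone receptors, reached at most 6 and 1 counts. KRT8 and KRT18, also listed as luminal epithelial markers, were at 69.2 and 157 CPM or more. CD3E, which defines T lymphocytes, had 0 counts in all 8 libraries, which allows a level of up to 3 counts per library. CD68, also listed as a leukocyte marker, was at 51.3 CPM or more.

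Mitosis genes were lower after arginine starvation in both lines. In parental cells 47 of the 55 members fell, none rose and 8 did not pass the test, and in ρ0 cells the same numbers were found. Both counts rest on a fit in which all groups share the estimate of the spread of each gene. With the 4 parental libraries alone 51 members fell, where 42.5% of all tested genes did. With the 4 ρ0 libraries alone 40 members fell, where 11.8% of all tested genes did. Added over the 55 members, the level was 7951 and 7912 CPM in the parental control libraries, 3854 and 3901 CPM in the starved parental libraries, 9973 and 7729 CPM in the ρ0 control libraries, and 4337 and 4418 CPM in the starved ρ0 libraries. The starved libraries lay below the control libraries in each line, without overlap. As a share of all counts, the members took 0.854% and 0.856% in parental controls and 0.373% and 0.375% after starvation.

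A DEG (differentially expressed gene) had an adjusted p-value under 0.05 in edgeR's quasi-likelihood test and a log2 fold change beyond 1 in either direction. Among the members, 37 were DEGs lower in starved parental cells and 0 were DEGs higher, where 22.1% and 12.7% of all tested genes were. In ρ0 cells 38 members were DEGs lower and 0 were DEGs higher, against 8.19% and 4.22% of all tested genes. Without the fold threshold, 35.5% of all tested genes fell and 30.4% rose in parental cells, and 22.1% fell and 19.2% rose in ρ0 cells. The median log2 fold change of the members was -1.39 in parental cells and -1.23 in ρ0 cells, beside -0.07 and -0.02 over all tested genes. The count in ρ0 cells moved with the control library used, to 28 members without ρ0 control replicate 1 and 43 without ρ0 control replicate 2. Members that fell at any fold in ρ0 cells numbered 40 and 41 without ρ0 starved replicates 1 and 2, when CCNB1, TTK, CENPA, CENPF, KIF18A and KIF20B no longer passed the test in either case, and in parental cells 44 to 52 with a library left out.

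**Figure D1:**
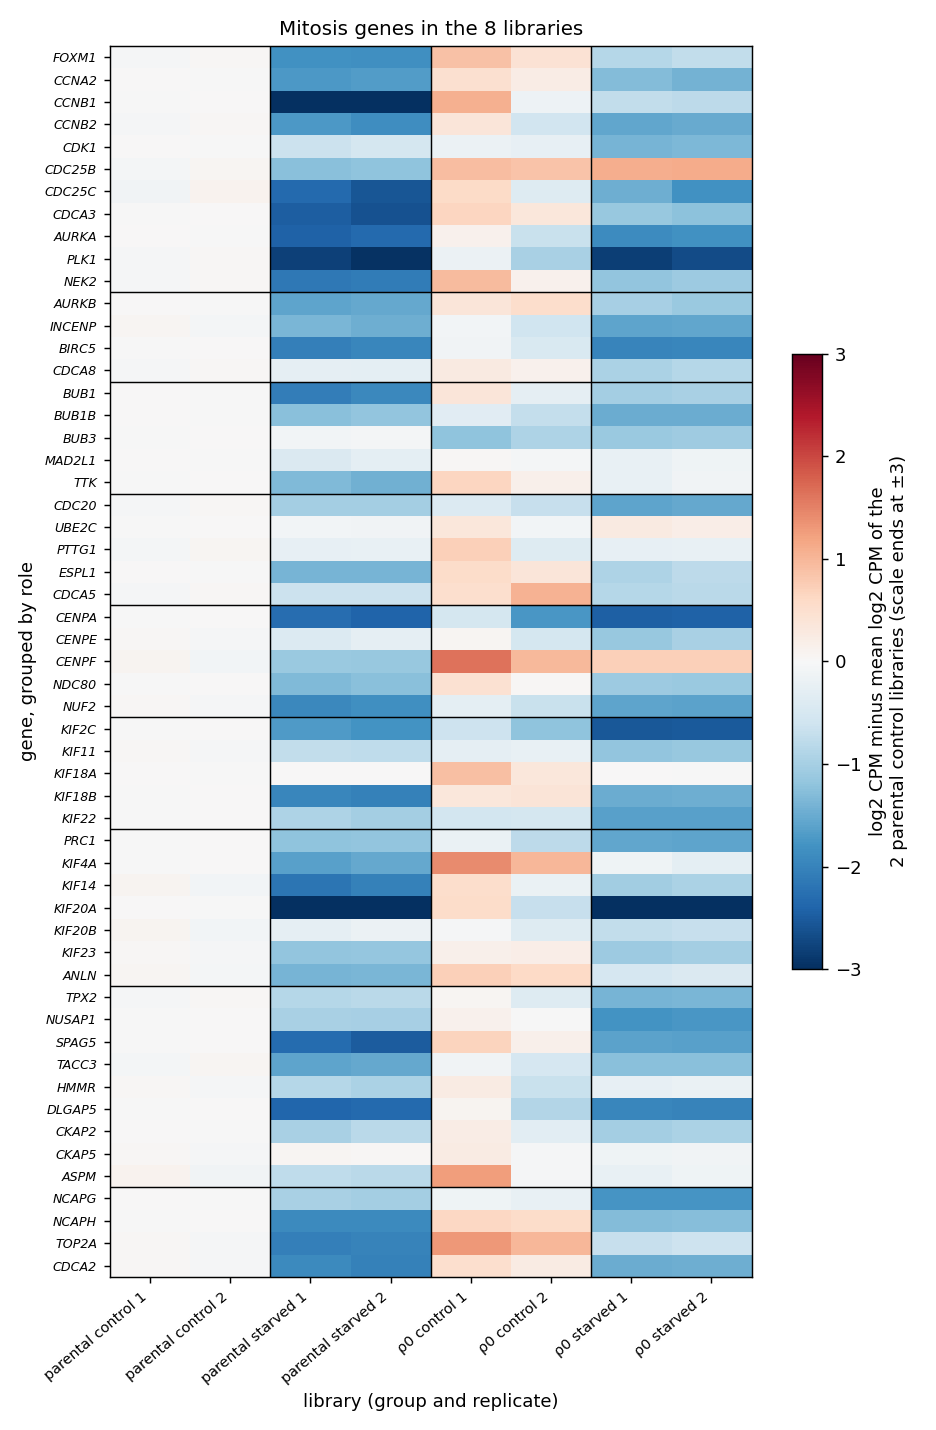
Log2 CPM of each of the 55 mitosis genes in each of the 8 libraries, as the difference from the mean of the 2 parental control libraries, with members in rows by role. The colour scale ends at -3 and 3, and most rows are lower in all 4 starved libraries, apart from members such as UBE2C and CKAP5.

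Of the members, 44 fell in both lines, as 14.6% of all tested genes did, and 5 (BUB3, UBE2C, PTTG1, CKAP5 and ASPM) did not pass the test in either, as 24.1% of all tested genes did not. CDC25B, MAD2L1 and HMMR passed the test in parental cells alone, and CENPE, KIF18A and KIF20B in ρ0 cells alone. These names rest on the spread shared by all groups. With the 4 parental libraries alone 51 members fell, and with the 4 ρ0 libraries alone 40, so the names change with the fit. With the fold threshold, 32 were DEGs in both lines, 5 in parental cells alone (CDC25B, BUB1B, TTK, CENPF and TACC3) and 6 in ρ0 cells alone (CDK1, CDCA8, CDCA5, KIF22, TPX2 and NUSAP1), where 4.94%, 17.2% and 3.25% of all tested genes were DEGs lower. Passing in a single line does not show that the lines differ, and the tests of that difference are given further on. The highest starved library lay below the lowest control library for 53 members in parental cells, as it did for 47.3% of all tested genes, and for 50 members in ρ0 cells, as it did for 34.5%.

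Promoters of the members that fell most and least in parental cells were read from a RefSeq table on GRCh38.p14, which held 47 of the 55 members. The members were searched on both strands for TTTGAA and TTCGAA, the letters of the cell cycle genes homology region to which MYB-MuvB binds, and for CCAAT, the letters to which the NF-Y factor binds. In the window from 250 bases before to 50 bases after the start, TTTGAA was found for 31 members (66%), where 15.4% of 27305 promoters of all genes held it, and TTCGAA for 4 members (8.51%, all genes 1.45%). CCAAT was found for 34 members (72.3%), where 35.7% of all promoters held it. CCAAT together with TTTGAA or TTCGAA was found for 27 members (57.4%), against 6.58% of all promoters. The 120 bases before the start are printed for KIF20A, CCNB1 and PLK1, the matched members with the largest parental decreases, and for CKAP5 and KIF18A, those with the smallest parental differences, chosen after their values were seen. Capitals mark CCAAT or its reverse complement ATTGG, and TTTGAA or its reverse complement TTCAAA, on the strand of the gene.
KIF20A, chr5:138178992-138179111, plus strand: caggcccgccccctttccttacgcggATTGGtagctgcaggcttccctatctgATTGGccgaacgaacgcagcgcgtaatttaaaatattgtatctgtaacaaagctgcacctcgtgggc
CCNB1, chr5:69167030-69167149, plus strand: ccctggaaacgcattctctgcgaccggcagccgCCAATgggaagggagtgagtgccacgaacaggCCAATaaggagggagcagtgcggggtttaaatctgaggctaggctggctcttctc
PLK1, chr16:23678769-23678888, plus strand: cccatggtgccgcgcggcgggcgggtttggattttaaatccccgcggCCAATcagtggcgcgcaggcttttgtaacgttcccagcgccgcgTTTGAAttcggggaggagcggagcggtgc
CKAP5, chr11:46846281-46846400, minus strand: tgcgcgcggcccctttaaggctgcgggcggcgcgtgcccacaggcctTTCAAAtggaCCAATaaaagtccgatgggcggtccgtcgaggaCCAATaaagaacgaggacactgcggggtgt
KIF18A, chr11:28108157-28108276, minus strand: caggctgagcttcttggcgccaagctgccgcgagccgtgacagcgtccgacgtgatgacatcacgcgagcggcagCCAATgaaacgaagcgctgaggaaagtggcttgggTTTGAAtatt

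The letters were found both in members with large decreases and in members with small differences. The promoter of KIF20A held ATTGG with its first base 94 and 67 bases before the start, and that of CCNB1 held CCAAT at 87 and 55 bases, neither with TTTGAA in this stretch. PLK1 held CCAAT 73 bases and TTTGAA 29 bases before the start. CKAP5, whose level differed little, also held both, with TTCAAA at 73 bases and CCAAT at 63 and 30 bases, and so did KIF18A, with CCAAT at 45 bases and TTTGAA at 10 bases. A match is a string of letters and not evidence of a bound factor.

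The 11 regulators of mitotic entry and mitotic kinases all fell in parental cells, 10 of them as DEGs, and 10 fell in ρ0 cells, all 10 as DEGs. CCNB1, which encodes the cyclin B1 partner of CDK1, was at 193 and 199 CPM in parental controls and at 24.4 and 23.1 CPM after starvation. In ρ0 cells CCNB1 was at 408 and 177 CPM in controls and at 117 and 114 CPM after starvation. CCNB1 thus fell in both lines without overlap, by a log2 fold change of -3.04 (SE 0.35, adjusted p = 0.0002) in parental cells and -1.34 (SE 0.32, adjusted p = 0.014) in ρ0 cells. The latter was -0.61 without ρ0 control replicate 1, when CCNB1 was no DEG, and -1.81 without replicate 2, and it did not pass the test without either starved ρ0 library (adjusted p = 0.086 and 0.093). CDK1, the kinase it activates, was at 209 and 207 CPM in parental controls and 133 and 146 CPM after starvation, and at 183 and 177 CPM in ρ0 controls and 78.9 and 82.2 CPM after starvation. CDK1 fell by a log2 fold change of -0.58 (SE 0.08, adjusted p = 0.00043) in parental cells and by -1.16 (SE 0.08, adjusted p = 0.00014) in ρ0 cells.

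CDC25B, a phosphatase that activates CDK1, was the member of this group that did not pass the test in ρ0 cells. It was at 146 and 157 CPM in parental controls and at 63.1 and 65.6 CPM after starvation, a log2 fold change of -1.23 (SE 0.08, adjusted p = 1.8e-05). In ρ0 cells CDC25B was at 289 and 271 CPM in controls and at 324 and 328 CPM after starvation, a log2 fold change of 0.22 (SE 0.08, adjusted p = 0.059). Both ρ0 groups lay above both parental groups. FOXM1, the forkhead transcription factor of G2/M genes, was at 114 and 121 CPM in parental controls and 33.5 and 32.5 CPM after starvation. In ρ0 cells FOXM1 was at 215 and 159 CPM in controls and 64.9 and 70.4 CPM after starvation. It fell by a log2 fold change of -1.83 (SE 0.14, adjusted p = 3.7e-05) in parental cells and -1.47 (SE 0.14, adjusted p = 0.00035) in ρ0 cells, with every starved library below every control library.

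The kinase PLK1, which acts in mitotic entry, spindle assembly and cytokinesis, was at 133 and 140 CPM in parental controls and 19.6 and 17.4 CPM after starvation. In ρ0 cells PLK1 was at 121 and 69.7 CPM in controls and 19.3 and 21.2 CPM after starvation, so that the 4 starved libraries lay between 17.4 and 21.2 CPM. Its log2 fold changes were -2.89 (SE 0.25, adjusted p = 5.1e-05) and -2.24 (SE 0.24, adjusted p = 0.00053), the latter the lowest of the group in ρ0 cells, and -1.79 and -2.58 without ρ0 control replicates 1 and 2. AURKA, the Aurora kinase of centrosomes and spindle poles, was at 194 CPM in both parental controls and 36.1 and 38.4 CPM after starvation, and at 212 and 122 CPM in ρ0 controls and 52.6 and 55.5 CPM after starvation. AURKA fell by -2.38 (SE 0.23, adjusted p = 8.9e-05) in parental cells and by -1.63 (SE 0.22, adjusted p = 0.0014) in ρ0 cells, or -1.18 and -1.96 without ρ0 control replicates 1 and 2.

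**Figure D2:**
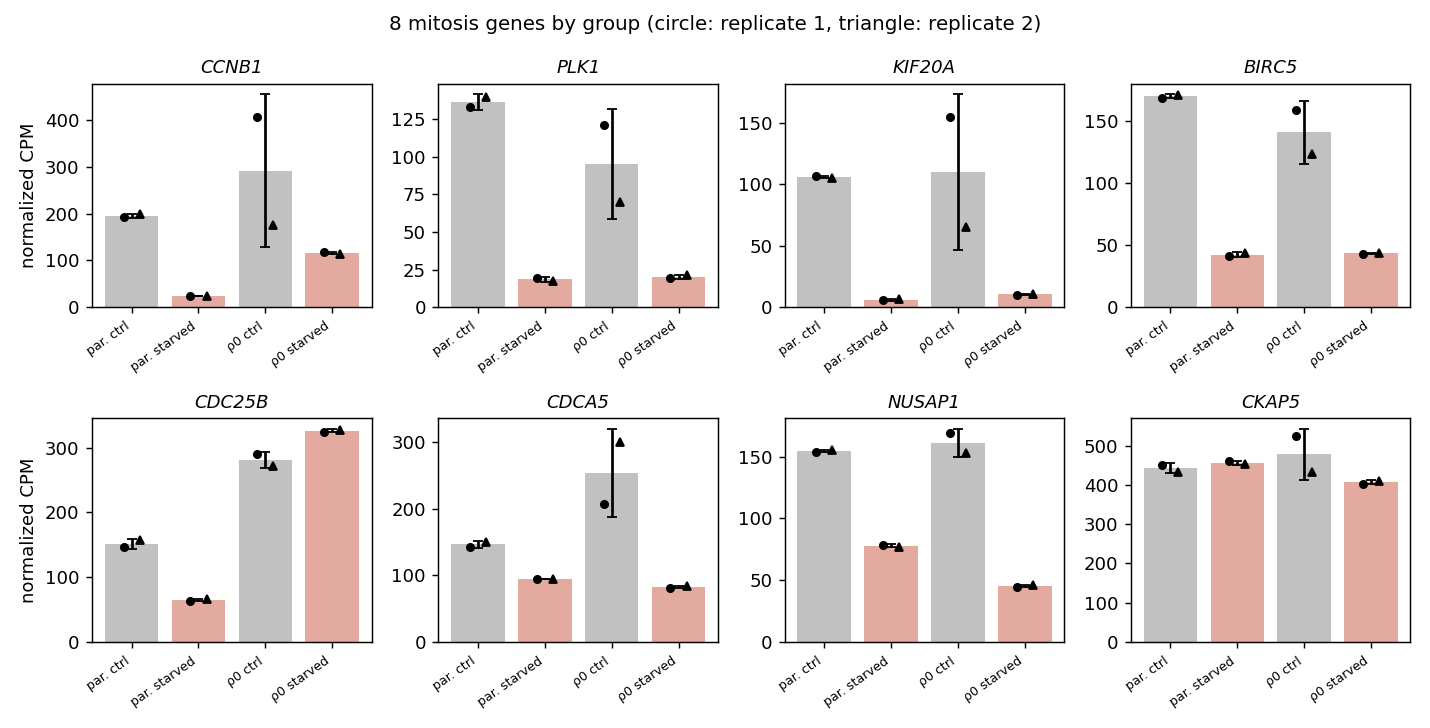
Level in CPM of selected mitosis genes in the 4 groups, where bars are the mean of 2 libraries with the SD, circles are replicate 1 and triangles replicate 2. PLK1 and KIF20A are lower in both starved groups, CDC25B is lower after starvation in parental cells alone, and the circle and the triangle of ρ0 control cells lie far apart for CCNB1 (408 and 177 CPM).

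The chromosomal passenger complex holds the Aurora B kinase at centromeres and, later, at the spindle midzone. All 4 of its genes fell in both lines, with 3 DEGs in parental cells and 4 in ρ0 cells. AURKB, the kinase, was at 68.7 and 68.4 CPM in parental controls and 22.8 and 23.7 CPM after starvation, and at 88.6 and 99.5 CPM in ρ0 controls and 34.3 and 31.6 CPM after starvation. Its log2 fold changes were -1.56 (SE 0.09, adjusted p = 1.4e-05) and -1.51 (SE 0.09, adjusted p = 0.00011). BIRC5, which encodes survivin, had the lowest log2 fold change of the complex in both lines. Its level was 169 and 171 CPM in parental controls and 41.0 and 43.6 CPM after starvation, and 159 and 123 CPM in ρ0 controls and 43.2 and 43.6 CPM after starvation. BIRC5 fell by -2.01 (SE 0.12, adjusted p = 1.6e-05) and -1.70 (SE 0.12, adjusted p = 0.00016).

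CDCA8, which encodes borealin of the same complex, had the smallest parental decrease of the 4. Its level was 79.4 and 82.7 CPM in parental controls and 66.7 and 66.2 CPM after starvation, and 97.2 and 89.3 CPM in ρ0 controls and 42.0 and 44.9 CPM after starvation. CDCA8 fell by a log2 fold change of -0.29 (SE 0.08, adjusted p = 0.016) in parental cells, a call lost in 5 of the 8 fits that left out a library, and -1.10 (SE 0.08, adjusted p = 0.00017) in ρ0 cells.

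Of the 5 spindle checkpoint genes, whose products hold back anaphase until chromosomes are attached, 4 fell in parental cells (3 as DEGs) and 3 in ρ0 cells (1 as a DEG). BUB1, a checkpoint kinase, was at 178 CPM in both parental controls and 42.6 and 46.9 CPM after starvation, and at 228 and 147 CPM in ρ0 controls and 88.5 and 91.5 CPM after starvation. BUB1 fell by -1.99 (SE 0.19, adjusted p = 8e-05) in parental cells and -1.06 (SE 0.18, adjusted p = 0.0035) in ρ0 cells, or -0.71, no longer a DEG, and -1.33 without ρ0 control replicates 1 and 2. BUB3, which carries BUB1 to the kinetochore, passed the test in neither line, at 504 and 513 CPM in parental controls and 479 and 488 CPM after starvation. In ρ0 cells it was at 219 and 267 CPM in controls and 236 and 244 CPM after starvation, a range that overlapped, and its log2 fold changes were -0.07 (SE 0.10, adjusted p = 0.55) and -0.02 (SE 0.10, adjusted p = 0.91).

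The 5 genes of the APC/C, securin, separase and cohesion group act at the separation of sister chromatids, and 3 of them fell in each line, with 2 DEGs in parental cells and 3 in ρ0 cells. CDC20, the activator of the anaphase-promoting complex (APC/C), was at 200 and 212 CPM in parental controls and 101 and 102 CPM after starvation, and at 155 and 128 CPM in ρ0 controls and 69.1 and 71.2 CPM after starvation. Its log2 fold changes of -1.03 (SE 0.10, adjusted p = 0.0001) and -1.01 (SE 0.10, adjusted p = 0.00043) lay close to the fold threshold, and its DEG call was lost in several fits, among them that without ρ0 control replicate 1 (-0.87 in ρ0 cells). ESPL1, which encodes separase, was at 74.6 and 73.8 CPM in parental controls and 28.2 and 28.4 CPM after starvation, and fell by -1.39 (SE 0.09, adjusted p = 2e-05) there and by -1.31 (SE 0.09, adjusted p = 0.00015) in ρ0 cells. UBE2C, the ubiquitin-conjugating enzyme of the APC/C, was at 191 and 197 CPM in parental controls and 182 and 181 CPM after starvation, and at 246 and 184 CPM in ρ0 controls and 233 and 223 CPM after starvation. The ρ0 groups overlapped, and UBE2C passed the test in neither line, with log2 fold changes of -0.10 (SE 0.13, adjusted p = 0.54) and 0.08 (SE 0.13, adjusted p = 0.64).

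CDCA5, which encodes sororin, a protein that protects cohesin, was at 143 and 150 CPM in parental controls and 94.3 and 94.0 CPM after starvation. In ρ0 cells CDCA5 was at 207 and 301 CPM in controls and 81.3 and 83.5 CPM after starvation, and was the member with the lowest ratio of replicate 1 to replicate 2 there. CDCA5 fell by -0.64 (SE 0.16, adjusted p = 0.0083) in parental cells and -1.62 (SE 0.16, adjusted p = 0.00039) in ρ0 cells, and the parental call was lost without replicate 2 of either parental group.

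Of the 5 centromere and kinetochore genes, 4 fell in parental cells, all 4 as DEGs, and 5 fell in ρ0 cells, 3 of them as DEGs. CENPA, the histone H3 variant that marks centromeres, was at 45.6 and 46.3 CPM in parental controls and 9.46 and 8.76 CPM after starvation. In ρ0 cells CENPA was at 31.7 and 13.6 CPM in controls and 8.48 and 8.53 CPM after starvation, again without overlap. Its log2 fold changes were -2.34 (SE 0.35, adjusted p = 0.00069) and -1.41 (SE 0.34, adjusted p = 0.014), the latter -0.68, no longer a DEG, and -1.89 without ρ0 control replicates 1 and 2. Without either starved ρ0 library CENPA did not pass the test (adjusted p = 0.090 and 0.087). CENPE, a kinesin of the kinetochore, was at 116 and 108 CPM in parental controls and 84.8 and 92.9 CPM after starvation and did not pass the test there (log2 fold change -0.33, SE 0.18, adjusted p = 0.13), whereas it fell by -0.86 (SE 0.18, adjusted p = 0.0075) in ρ0 cells, or -0.54 and -1.11 without ρ0 control replicates 1 and 2, a call lost without ρ0 starved replicate 1. CENPF, a large kinetochore protein, was at 171 and 153 CPM in parental controls, 74.3 and 74.2 CPM after starvation, 498 and 318 CPM in ρ0 controls and 266 and 267 CPM after starvation. CENPF fell by -1.13 (SE 0.19, adjusted p = 0.0013) and -0.62 (SE 0.19, adjusted p = 0.033), the latter -0.26 and -0.89 without ρ0 control replicates 1 and 2, and its ρ0 call was lost without any single library other than a ρ0 control.

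Kinesins are motors that walk along or dismantle microtubules. Of the 5 that act on the spindle and on chromosomes, 4 fell in parental cells (2 DEGs) and 5 in ρ0 cells (3 DEGs). KIF18B, which shortens astral microtubules, was at 70.6 and 70.8 CPM in parental controls and 18.1 and 17.2 CPM after starvation, and at 89.8 and 92.9 CPM in ρ0 controls and 25.3 and 25.6 CPM after starvation. It fell by -2.0 (SE 0.08, adjusted p = 6.6e-06) and -1.84 (SE 0.08, adjusted p = 3.6e-05). KIF18A, a motor of the same kinesin family that aligns chromosomes, was at 45.4, 44.9, 45.3 and 45.3 CPM in the 4 parental libraries, control libraries before starved ones. Its parental log2 fold change was 0.01 (SE 0.16, adjusted p = 0.98), and in ρ0 cells, at 83.8 and 57.1 CPM in controls and 45.8 and 45.1 CPM after starvation, it fell by -0.63 (SE 0.16, adjusted p = 0.018), or -0.33 and -0.87 without ρ0 control replicates 1 and 2.

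The genes of the spindle midzone and of cytokinesis numbered 7, and 6 of them fell in parental cells and 7 in ρ0 cells, with 6 DEGs in each line. KIF20A, a kinesin of the midzone needed for cytokinesis, had the lowest log2 fold change of all 55 members in both lines. It was at 106 and 105 CPM in parental controls and 5.46 and 6.24 CPM after starvation, and at 155 and 65.1 CPM in ρ0 controls and 10.0 and 10.6 CPM after starvation. The decrease was 18.0-fold in parental cells (log2 -4.17, SE 0.39, adjusted p = 7.9e-05) and 10.6-fold in ρ0 cells (log2 -3.41, SE 0.37, adjusted p = 0.00057), with log2 values of -2.66 and -3.89 without ρ0 control replicates 1 and 2. KIF20B, a related kinesin, was at 112 and 101 CPM in parental controls and 88.3 and 94.8 CPM after starvation. Its parental log2 fold change of -0.22 (SE 0.12, adjusted p = 0.15) did not pass the test, and in ρ0 cells, at 104 and 81.7 CPM in controls and 64.1 and 66.1 CPM after starvation, it fell by -0.51 (SE 0.12, adjusted p = 0.014), or -0.33 and -0.66 without ρ0 control replicates 1 and 2.

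Of the 9 spindle microtubule proteins, 7 fell in parental cells (3 DEGs) and 6 in ρ0 cells (4 DEGs). SPAG5, the spindle protein astrin, had the lowest log2 fold change of this group in both lines. Its level was 103 CPM in both parental controls and 20.6 and 18.3 CPM after starvation. In ρ0 cells SPAG5 was at 163 and 115 CPM in controls and 34.0 and 33.4 CPM after starvation. It fell by -2.40 (SE 0.16, adjusted p = 2.2e-05) and -2.05 (SE 0.16, adjusted p = 0.00019). CKAP5, the microtubule polymerase also called chTOG, was at 452 and 434 CPM in parental controls and 461 and 453 CPM after starvation, and at 524 and 433 CPM in ρ0 controls and 404 and 411 CPM after starvation. Its log2 fold changes of 0.04 (SE 0.10, adjusted p = 0.72) and -0.23 (SE 0.10, adjusted p = 0.11) did not pass the test, and the sign of the parental value was negative under scaling by the upper quartile or by total counts.

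HMMR and ASPM of the same group differed between the ρ0 control libraries by more than most members. HMMR, a receptor for hyaluronan that also binds the spindle, was at 24.8 and 23.3 CPM in parental controls and 13.2 and 12.4 CPM after starvation, where it fell by -0.91 (SE 0.26, adjusted p = 0.016), a call lost without any single parental library. In ρ0 cells the starved libraries, at 20.1 and 21.0 CPM, lay between the controls, at 28.7 and 15.2 CPM, and the log2 fold change was -0.10 (SE 0.26, adjusted p = 0.8), or 0.44 and -0.47 without ρ0 control replicates 1 and 2. ASPM, a protein of the spindle poles, was at 109 and 93.5 CPM in parental controls and 59.4 and 57.5 CPM after starvation, and at 239 and 98.2 CPM in ρ0 controls and 86.1 and 92.4 CPM after starvation. The starved libraries lay below the controls in each line, yet with log2 fold changes of -0.79 (SE 0.35, adjusted p = 0.078) and -0.92 (SE 0.35, adjusted p = 0.068) ASPM did not pass the test. Its ρ0 value was -0.14 and -1.41 without ρ0 control replicates 1 and 2.

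All 4 genes of chromosome condensation and structure were DEGs lower in both lines. TOP2A, the DNA topoisomerase that untangles sister chromatids, was at 368 and 353 CPM in parental controls and 87.2 and 89.3 CPM after starvation, and at 891 and 713 CPM in ρ0 controls and 224 and 233 CPM after starvation. TOP2A fell by -2.03 (SE 0.12, adjusted p = 1.2e-05) and -1.81 (SE 0.11, adjusted p = 0.00011). NCAPH, a condensin subunit, was at 74.1 and 75.3 CPM in parental controls, 19.8 and 19.7 CPM after starvation, 114 and 109 CPM in ρ0 controls and 30.3 and 30.7 CPM after starvation. Its log2 fold changes of -1.92 (SE 0.08, adjusted p = 6.6e-06) and -1.87 (SE 0.08, adjusted p = 3.5e-05) were alike in size. NCAPG, another subunit of the same condensin, was at 138 and 134 CPM in parental controls, 68.7 and 67.1 CPM after starvation, 124 and 116 CPM in ρ0 controls and 40.1 and 39.8 CPM after starvation. NCAPG fell by -1.0 (SE 0.07, adjusted p = 2.9e-05) and -1.58 (SE 0.08, adjusted p = 4.1e-05). Its parental value lay at the fold threshold, and the parental DEG call was lost with DESeq2, with DESeq2's size factors, without a filter, with the parental libraries alone and in 5 of the 8 fits that left out a library.

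Whether the lines responded differently was tested as an interaction, the log2 fold change of ρ0 cells minus that of parental cells, which uses the same 8 libraries as both responses. Of the 55 members, 5 had a lower response in ρ0 cells and 7 a higher one, where 18.8% and 21.6% of all tested genes did. These counts rest on the ρ0 control libraries, and limma-voom with group weights gave 15 members higher. The median interaction was 0.16 over the members and 0.02 over all tested genes. Without ρ0 control replicate 1 it was 0.39 over the members and 0.06 over all tested genes. Without ρ0 control replicate 2 it was -0.01 over the members and 0.03 over all tested genes. For the remaining 43 members no difference between the lines was detected, which does not show that their responses were equal. With an interaction above 1 or below -1 in addition, 0 members were lower and 2 were higher, where 6.62% and 13.3% of all tested genes were.

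**Figure D3:**
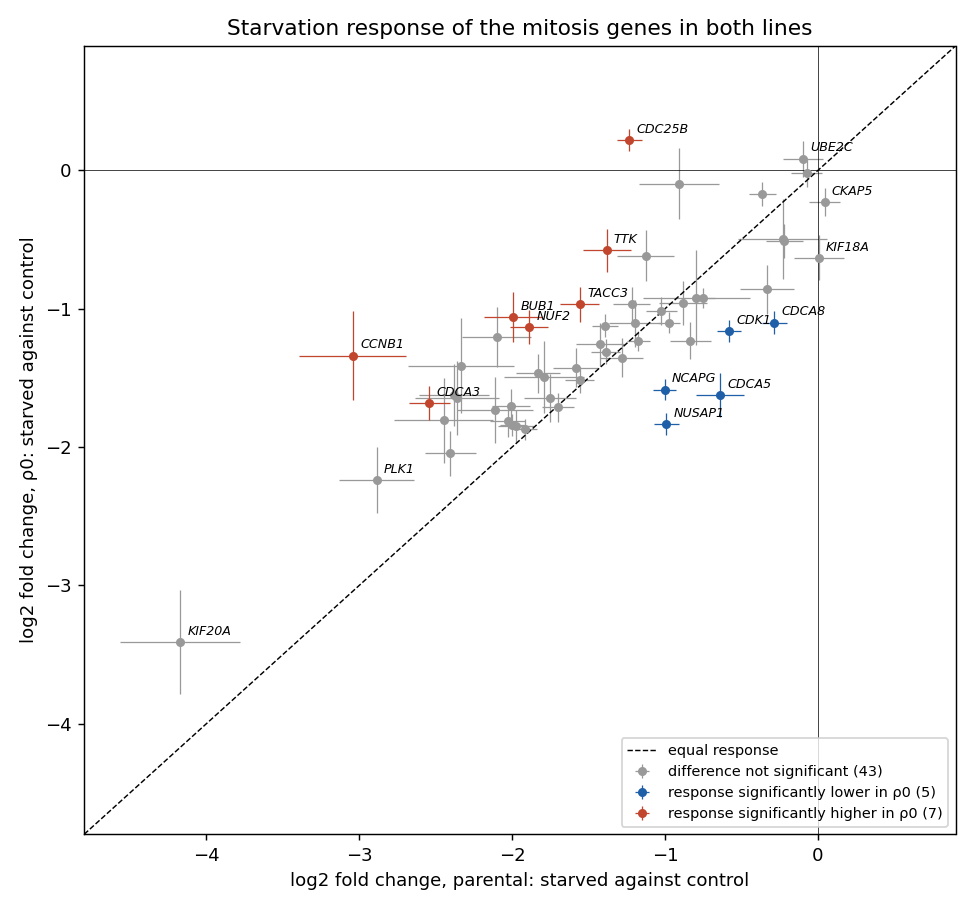
Log2 fold change (starved against control) of the 55 mitosis genes in parental cells on the horizontal axis and in ρ0 cells on the vertical axis, with bars of 1 SE, members whose interaction passed the test in colour and a dashed line for equal responses. CCNB1 and CDC25B lie farthest above the line, and CDCA5, NUSAP1 and CDCA8 lie below it.

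Of the 55 members, 37 had an interaction above 0 and 18 below 0. The 7 above the line that passed the test were CCNB1, CDC25B, CDCA3, BUB1, TTK, NUF2 and TACC3. CDC25B had an interaction of 1.45 (SE 0.11, adjusted p = 0.00026) and CCNB1 of 1.70 (SE 0.46, adjusted p = 0.023). CDCA3, a factor that directs the destruction of the mitotic inhibitor WEE1, was at 50.6 and 51.5 CPM in parental controls and 9.19 and 8.37 CPM after starvation, and at 80.5 and 64.7 CPM in ρ0 controls and 23.3 and 21.9 CPM after starvation. It fell in both lines, with an interaction of 0.86 (SE 0.18, adjusted p = 0.008). BUB1 had an interaction of 0.93 (SE 0.26, adjusted p = 0.025). TTK, NUF2 and TACC3, named after their values were seen, had interactions of 0.80, 0.76 and 0.59 (adjusted p = 0.023, 0.012 and 0.033). The calls of CCNB1, BUB1, TTK and TACC3 were each lost when any single library other than a ρ0 control was left out, and that of NUF2 was lost in 4 of these 6 cases. The value for CCNB1 was 2.44 without ρ0 control replicate 1 and 1.20 without ρ0 control replicate 2, and that for BUB1 was 1.28 and 0.62.

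The 5 members below the line that passed the test were CDK1, CDCA8, CDCA5, NUSAP1 and NCAPG, which fell in both lines and more in ρ0 cells. NUSAP1, which binds and bundles spindle microtubules and was named after its values were seen, was at 154 and 155 CPM in parental controls and 78.6 and 77.0 CPM after starvation, and at 169 and 153 CPM in ρ0 controls and 44.3 and 45.9 CPM after starvation. Its interaction was -0.84 (SE 0.11, adjusted p = 0.0016). That of CDCA8 was -0.81 (SE 0.12, adjusted p = 0.002), that of CDK1 -0.58 (SE 0.11, adjusted p = 0.0062) and that of NCAPG -0.58 (SE 0.10, adjusted p = 0.0049). The call of CDCA5, with -0.98 (SE 0.22, adjusted p = 0.012), was lost without parental control replicate 1, and its value was -1.22 and -0.72 without ρ0 control replicates 1 and 2. The interactions of all 12 members kept their sign without either ρ0 control library, which their selection in the full fit made likely.

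The lines were also compared at rest and after starvation, with control and starved samples that are shared with the responses above. Between control cells, 10 members were lower and 17 higher in ρ0 cells, where 31.8% and 30.5% of all tested genes were, and the median log2 difference was 0.11, or -0.21 without ρ0 control replicate 1 and 0.40 without replicate 2. As DEGs, BUB3 and CENPA were lower and CENPF, KIF4A and TOP2A were higher, where 17.3% and 13.6% of all tested genes were. BUB3 was lower by a log2 difference of -1.07 (SE 0.10, adjusted p = 8.9e-05). CENPF was higher by 1.33 (SE 0.19, adjusted p = 0.00061) and TOP2A by 1.15 (SE 0.11, adjusted p = 9.1e-05). EPCAM, an epithelial marker that is no member, also differed between the lines, at 0.521 CPM or less in parental libraries and 16.4 CPM or more in ρ0 libraries, and the summed luminal markers were at 314 to 433 CPM and 495 to 1407 CPM. FOXA1, another luminal marker, went the other way, at 7.34 CPM or more in parental libraries and 0.135 CPM or less in ρ0 libraries. The part of these differences in the results was not tested. KIF4A, a chromosome-bound kinesin that has a near-identical gene copy, was higher by 1.21 (SE 0.14, adjusted p = 0.00022), with reads that could have been split with that copy. CENPA, by contrast, was lower by -1.02 (SE 0.32, adjusted p = 0.027), at 31.7 and 13.6 CPM in ρ0 controls against 45.6 and 46.3 CPM in parental controls. The value of CENPA was -1.76 and -0.48 without ρ0 control replicates 1 and 2, and its DEG call was also lost without either parental control, either starved ρ0 library or the expression filter. Without ρ0 control replicate 1, BUB3 (-0.93), CENPF (0.97), KIF4A (0.99) and TOP2A (0.98) fell short of the fold threshold, so that CENPA and KIF2C were the DEGs lower and CDCA5 the DEG higher. Without replicate 2, 1 member was a DEG lower and 6 were DEGs higher.

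Between starved cells, where the replicates of each line lay close together, 12 members were lower and 19 higher in ρ0 cells, against 33.5% and 32.9% of all tested genes. BUB3 was the single DEG lower, at 236 and 244 CPM in ρ0 cells and 479 and 488 CPM in parental cells (log2 difference -1.01, SE 0.10, adjusted p = 9.9e-05). DEGs higher in starved ρ0 cells numbered 10, where 16.8% of all tested genes were DEGs lower and 18.7% DEGs higher. They were FOXM1, CCNB1, CDC25B, CDCA3, BUB1, TTK, CENPF, KIF4A, KIF14 and TOP2A. CDC25B differed by 2.34 (SE 0.08, adjusted p = 1e-06) and CCNB1 by 2.28 (SE 0.34, adjusted p = 0.00071). CDK1, at 78.9 and 82.2 CPM in ρ0 cells and 133 and 146 CPM in parental cells, was lower by -0.79 (SE 0.08, adjusted p = 9e-05), so that the kinase and its cyclin differed in opposite directions between the starved lines. BUB3 and BUB1 lay close to the fold threshold, and the DEG call of BUB3 was lost without parental starved replicate 2, ρ0 control replicate 2 or ρ0 starved replicate 1, and that of BUB1 without parental starved replicate 1.

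The ρ0 control libraries carried different levels of the mitosis genes. Replicate 1 was above replicate 2 for 48 of the 55 members and below it for 7, with a median log2 ratio of 0.42 beside 0 over all tested genes. The ratio ran from -0.54 for CDCA5 to 1.29 for ASPM. It was above 1 for ASPM, KIF20A, CENPA, CCNB1 and PTTG1, that is 9.09% of the members, and above 1 for 4.79% of all tested genes, and below -1 for 0 members and 2.98% of all tested genes. PTTG1, which encodes securin and has near-identical copies, was named as a member of this count and was at 119 and 56.1 CPM there and at 61.6 and 62.8 CPM in starved ρ0 cells.

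**Figure D4:**
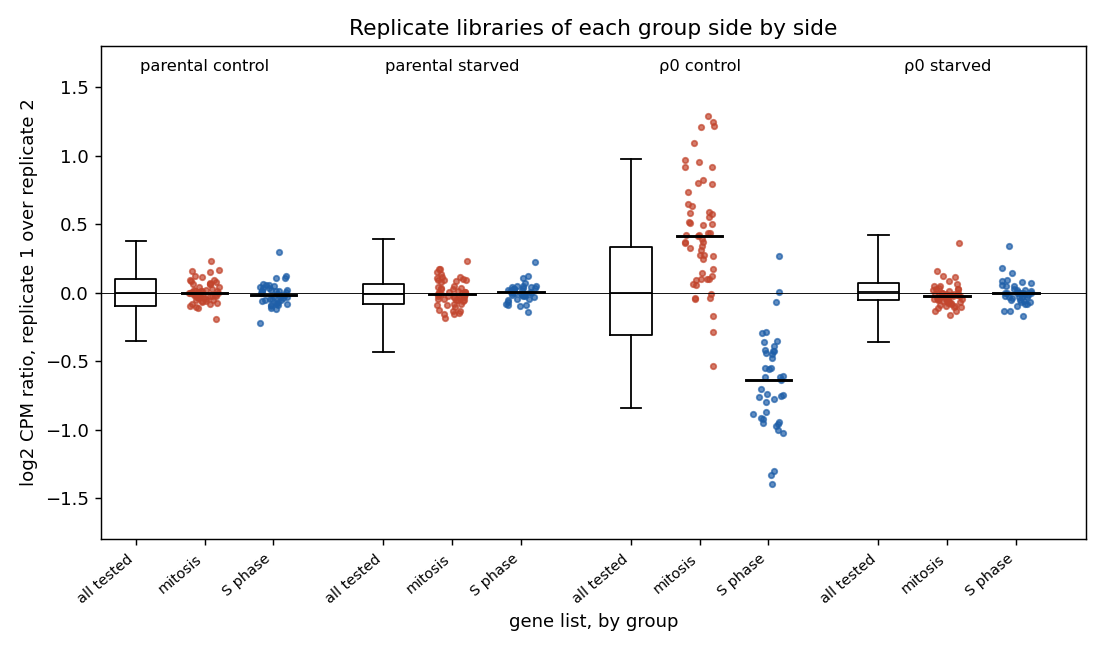
Log2 ratio of CPM between replicate 1 and replicate 2 of each of the 4 groups, for the mitosis genes and the S phase genes (points, with black bars for medians) beside all tested genes (boxes for quartiles, whiskers for the 5th to 95th percentile). The mitosis genes of ρ0 control cells lie mostly above 0 (median 0.42) and the S phase genes mostly below 0 (median -0.63), while the other groups lie near 0.

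In the other groups the median ratio of the members was -0.003 in parental control, -0.01 in starved parental and -0.03 in starved ρ0 cells. Of 41 S phase genes, 2 were higher and 39 lower in ρ0 control replicate 1 than in replicate 2, with a median log2 ratio of -0.63, the opposite direction of the mitosis genes. The summed level of these S phase genes was 3966 CPM in ρ0 control replicate 1 and 6200 CPM in replicate 2. Its part in the ρ0 responses of the mitosis genes was not tested.

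Further genes of the pathway were taken from 6 lists, to be read against the 35.5% of all tested genes that fell and 30.4% that rose in parental cells, and the 22.1% and 19.2% in ρ0 cells. Among 33 further G2/M regulators and spindle genes, 22 fell and 2 rose in parental cells, and 28 fell and 0 rose in ρ0 cells, with median log2 fold changes of -0.86 and -1.06. Their lowest values were those of CIT (-2.91), the citron kinase of cytokinesis, in parental cells and DEPDC1B (-2.92) in ρ0 cells. Among 31 further kinetochore genes, 20 fell and 3 rose in parental cells, and 26 fell and 0 rose in ρ0 cells, with medians of -0.44 and -0.95. SPC25, a subunit of the NDC80 complex, was lowest in both lines, at -4.07 and -2.29.

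The APC/C subunits with FZR1, its other activator, were listed apart from CDC20. Of 14 tested, 7 fell and 2 rose in parental cells and 6 fell and 1 rose in ρ0 cells, with medians of -0.25 and -0.20. Of the 14 genes of cohesin and its regulators, 4 fell and 5 rose in parental cells and 6 fell and 3 rose in ρ0 cells, with medians of 0.18 and -0.07. Of the 14 components of DREAM and MYB-MuvB, the complexes that repress and activate cell cycle genes, 3 fell and 7 rose in parental cells and 3 fell and 4 rose in ρ0 cells, with medians of 0.29 and -0.24. The lowest of these were RBL2 (-3.25), which encodes the pocket protein p130, in parental cells and MYBL2 (-2.78), the B-MYB factor, in ρ0 cells.

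S phase genes, which serve DNA replication, stood beside the mitosis genes as a list of 41. In parental cells 19 fell and 5 rose, with a median log2 fold change of -0.35. DEGs lower numbered 10 there, where 22.1% of all tested genes were. In ρ0 cells 39 fell and 0 rose, with a median of -1.48, where the ρ0 controls held 3966 and 6200 CPM of these genes in sum. DEGs lower numbered 35 in ρ0 cells, where 8.19% of all tested genes were. The interaction was lower for 29 of them and higher for 1, where it was for 18.8% and 21.6% of all tested genes. Its median was -0.98, whereas the median interaction of the mitosis genes was 0.16. Both medians rest on the ρ0 control libraries, whose median log2 ratio was -0.63 for the S phase genes and 0.42 for the mitosis genes. How far the S phase values depend on either library was not tested. The starved ρ0 libraries held 1968 and 1964 CPM of S phase genes in sum and the starved parental libraries 3214 and 3217 CPM, beside 3795 and 3860 CPM in parental controls.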

How the data were processed

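RNA-seq counts of 8 libraries, 2 in each of 4 groups taken from the labels, were analysed. The authors deposited raw counts per gene symbol without normalization, and the submitters' processing notes name Bowtie, Partek and hg19. Versions, the annotation and the use of strand are not given in the sources used here, so that overlapping and antisense genes cannot be told apart and hg19 coordinates are not printed. Promoters are from RefSeq on GRCh38.p14.

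The counts were tested in R 4.3.3 with edgeR 4.0.16 (filterByExpr, TMM, quasi-likelihood test, Benjamini-Hochberg adjustment over 15262 genes, all 8 libraries, 1 mean per group, 4 residual degrees of freedom). SE was derived from the size of the log2 fold change over the root of the F statistic. CPM values use TMM-scaled totals, and the ratio of replicates has a pseudocount of 0.1 CPM. The depth gave every member at least 93 counts per library. The scripts were tested on simulated data in which all groups shared the spread of a gene, unlike the ρ0 control libraries here.

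Genes were named by rule as the lowest and highest of each of 9 role groups in each line, the 5 largest interactions among members that passed the test, the 3 largest ratios between the ρ0 control libraries, and CCNB1, CDK1, PLK1, AURKA, AURKB, CDC20, BIRC5, FOXM1 and TOP2A. NUSAP1, TTK, NUF2 and TACC3 were named after their values were seen, as were the members that resolve a count by name. The members and lists were chosen with earlier results of these data known.

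Alternatives were other scalings and filters, DESeq2 1.42.0, limma 3.58.1 (voom, also with group weights), a replicate block, other fold thresholds, fits to part of the libraries and leaving out each library.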

Additional observations from a re-analysis of the deposited data

Results flagged for a closer look

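The test of a different response in the 2 lines picked out 12 of the 55 mitosis genes. Their adjusted p-values lay between 0.00026 and 0.033 in edgeR's quasi-likelihood test. Of the members, 5 had a lower response in ρ0 cells and 7 a higher one, where 18.8% and 21.6% of all tested genes did. Lower in ρ0 cells were CDCA5 with a log2 interaction of -0.98, NUSAP1 with -0.84, CDCA8 with -0.81, NCAPG with -0.58 and CDK1 with -0.58. Higher were TACC3 with 0.59, NUF2 with 0.76, TTK with 0.80, CDCA3 with 0.86, BUB1 with 0.93, CDC25B with 1.45 and CCNB1 with 1.70. CDC25B is the member whose parental decrease had no counterpart in ρ0 cells. Its log2 fold change there was 0.22, or 0.27 and 0.18 without ρ0 control replicates 1 and 2. The other members picked out fell in both lines. Those with a lower response fell by more in ρ0 cells and those with a higher response by less. The ρ0 control libraries differed by a log2 ratio of 1.21 for CCNB1 and 0.09 for CDC25B. As given above, the calls of CCNB1, BUB1, TTK and TACC3 were lost when any single library other than a ρ0 control was left out.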

How the results depend on the processing

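Lower levels of the mitosis genes after starvation kept their direction as a group under all alternatives run, with 35 to 41 DEGs lower in parental cells and 28 to 43 in ρ0 cells under the fold threshold, 47 in each without it, and 0 DEGs higher throughout. At any fold, 1 member was called higher in ρ0 cells with DESeq2, and 1 in parental cells without both ρ0 control libraries. With 1 ρ0 control library left out, the fit takes the lone library to vary like the other groups, so the counts of calls that then rise are no sign of stability. Deviations of same-numbered libraries correlated between -0.053 and 0.039, so no pairing by replicate number was seen in the counts. How the cultures were laid out cannot be read from this. A fit with the replicate number as a block gave 37 and 38 DEGs lower and changed no count of calls by over 1.5 times. Scaling by total counts moved the median of all genes in the parental response to -0.23 and that of the members to -1.55, and the upper quartile moved that of all genes to -0.19.

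The signs of members near 0 turned. The parental value of KIF18A was -0.11 with the upper quartile, -0.16 with total counts, -0.029 with 10 counts in every library and from -0.00641 (without parental control replicate 2) to 0.044 (without ρ0 starved replicate 1) with a library left out, and that of CKAP5 was -0.075 with the upper quartile and -0.12 with total counts. In ρ0 cells BUB3 was at 0.0074 without a filter, -0.15 and 0.14 without ρ0 control replicates 1 and 2, and 0.02 without ρ0 starved replicate 1. Without ρ0 control replicates 1 and 2, HMMR was at 0.44 and -0.47 there, UBE2C at 0.31 and -0.10, and PTTG1 at 0.15 and -0.93. The cause was not tested.

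Leaving out each library, the median ρ0 response ran from -1.41 to -1.04. For the interaction, members lower ran from 4 to 17, members higher from 2 to 33 and the median from -0.01 to 0.39, the highest median and the highest count of members higher being those without ρ0 control replicate 1. Without ρ0 control replicate 2, 17 were lower and 16 higher, and the median was -0.013758. Limma-voom with group weights gave 15 members higher, and the added fold threshold 0 lower and 2 higher. Between control cells, DEGs lower ran from 1 to 2, DEGs higher from 1 to 6 and the median from -0.21, a reversal without ρ0 control replicate 1, to 0.40. Without a fold threshold 10 were lower and 17 higher, and without a filter 1 was a DEG lower. Between starved cells, DEGs lower ran from 0 to 1 with a library left out, and were 0 with the upper quartile, without a filter and without both ρ0 controls. Without a fold threshold 12 were lower and 19 higher there. Every member had at least 93 counts per library, and the effect of depth on these counts was not tested. The 2 libraries per group limited the precision of each fold change.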
